A study of Mus musculus with 10 samples.

Results

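Chemokines are small secreted or membrane-anchored proteins that guide the migration of leukocytes and microglia along a concentration gradient, and they act through G protein-coupled receptors. They are classed by the spacing of the first cysteines of the mature protein, which are separated by a single residue in CXC chemokines and by a longer gap in the CX3C chemokine. In the retina, neurons make the CX3C ligand Cx3cl1 (fractalkine) and microglia carry its receptor Cx3cr1, whereas CXC ligands such as Cxcl1 and Cxcl10 are known mainly for their induction under inflammation. Described here are 9 genes of these families, taken by gene symbol from the deposited expression table of 54532 genes: the ligands Cxcl1, Cxcl9, Cxcl10, Cxcl12, Cxcl16 and Cx3cl1, and the receptors Cxcr3, Cxcr4 and Cx3cr1.

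The study used light damage (LD) of albino mouse retinas to look for genes induced by the injury. Neural retinas of BALB/c mice, an albino strain that is sensitive to light, were taken at 2 months of age and profiled by RNA-seq in 10 samples. According to the labels, all mice spent 12 hr in the dark, and then 5 samples received normal light (NL, 200 lux) and 5 received high-intensity light (LD, 15000 lux), in both cases for 1 day. No group carried a transgene or another treatment, and samples are named below by group and label number (NL-1, LD-4). The labels do not say that the samples came from separate animals or whether retinas were pooled, so the p-values measure the spread between these samples.

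Depth, taken as the reads recovered from the deposited values and summed over genes, was 21343389 to 26832535 per retina in NL and 18965090 to 23378090 in LD. Values are FPKM, that is, reads scaled to the length of the gene and the size of the library, and 1 read on a gene of 1 kb was worth 0.0388 to 0.0493 FPKM. The rod photoreceptor genes, which define the labelled tissue, were abundant in NL, and all 8 of the list were called lower in LD: their summed level was 8068 to 9881 FPKM in NL and 1192 to 2409 FPKM in LD. In whole tissue, fewer cells of a type and less RNA per cell cannot be told apart, and the same holds for more cells and more RNA per cell. The retinal pigment epithelium list had 8 tested genes and 0 calls in limma (at an unadjusted p under 0.05, 0 were higher and 1 was lower, and limma-voom made 0 calls). Of the 20 pairs of samples within a group, 3 (LD-4 with LD-6, NL-5 with NL-7 and LD-1 with LD-7) were closer to each other than the rest, with a chi-square per gene of 2.52 to 3.41 against 10.9 to 38.5, and they were kept as separate samples.

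The class-defining part of each ligand is shown first, since it is what separates Cx3cl1 from the other ligands. These are coding bases from GENCODE M21 transcripts on GRCm38, 5′ to 3′ on the gene's strand, with the codons of the first cysteine pair in capitals and 3 codons on either side. All 6 stretches lie in exon 2 of their gene.
Cxcl1, chr5:90891487-90891513, + strand: gagctgcgcTGTcagTGCctgcagacc
Cxcl9, chr5:92326833-92326859, - strand: aatgcacgaTGCtccTGCatcagcacc
Cxcl10, chr5:92348172-92348198, - strand: acggtccgcTGCaacTGCatccatatc
Cxcl12, chr6:117171499-117171525, + strand: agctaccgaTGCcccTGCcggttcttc
Cxcl16, chr11:70459118-70459144, - strand: gctggaagtTGTtctTGTgatcgtacc
Cx3cl1, chr8:94778042-94778074, + strand: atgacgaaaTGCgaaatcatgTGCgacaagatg
In the CXC ligands 1 codon stands between the capitals, and in Cx3cl1 there are 3. The coding sequences ran from 96 codons in Cxcl1 and 98 in Cxcl10 to 246 in Cxcl16 and 395 in Cx3cl1, the pair that is made as membrane-anchored proteins with a long stalk.

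Cxcl1, Cxcl9 and Cxcl10 lie on chromosome 5, where most mouse CXC ligands are clustered, and Cxcl9 and Cxcl10 are close neighbours on the same strand. They were also the ligands at or near 0 reads in NL. Their promoters are shown because interferon-activated factors (through the ISRE, the interferon-stimulated response element, and the GAS, the gamma-activated site) and NF-kappaB are known regulators of such ligands. The sequences are the 250 bases before the RefSeq start on GRCm38.p6, in lower case with motif matches in capitals.
Cxcl1, chr5:90890995-90891244, + strand: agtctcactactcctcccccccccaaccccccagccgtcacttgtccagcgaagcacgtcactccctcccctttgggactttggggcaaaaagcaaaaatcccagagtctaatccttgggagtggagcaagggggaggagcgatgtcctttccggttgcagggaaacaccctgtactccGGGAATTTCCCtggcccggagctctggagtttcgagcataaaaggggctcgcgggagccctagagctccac
Cxcl9, chr5:92328080-92328329, - strand: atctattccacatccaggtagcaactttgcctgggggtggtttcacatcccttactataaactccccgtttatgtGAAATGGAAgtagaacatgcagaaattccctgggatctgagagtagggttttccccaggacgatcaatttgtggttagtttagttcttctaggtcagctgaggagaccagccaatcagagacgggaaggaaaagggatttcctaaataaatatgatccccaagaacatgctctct
Cxcl10, chr5:92348890-92349139, - strand: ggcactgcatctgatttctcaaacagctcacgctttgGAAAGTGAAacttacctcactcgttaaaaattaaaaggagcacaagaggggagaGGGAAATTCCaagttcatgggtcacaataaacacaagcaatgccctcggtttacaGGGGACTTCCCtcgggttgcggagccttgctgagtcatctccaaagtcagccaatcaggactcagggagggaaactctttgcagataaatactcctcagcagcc
Both strands were searched for the ISRE core GAAANNGAA, the GAS core TTCNNNGAA and the NF-kappaB consensus. Over all 32851 promoter windows of the same length, 7.13% held the ISRE core, 7.02% the GAS core and 7.25% the NF-kappaB consensus. In the Cxcl1 window the capitals mark overlapping NF-kappaB matches, from 71 to 61 bases before the start. Cxcl9 held 1 ISRE core, 175 to 167 bases before the start. Cxcl10 held 1 ISRE core, 213 to 205 bases before the start, and NF-kappaB matches at 159 to 150 and at 104 to 94 bases before it, the latter made of overlapping matches. None of these windows held the GAS core. The table of promoters had 8 of the 9 genes, and the windows of Cxcl12, Cx3cl1, Cxcr3, Cxcr4 and Cx3cr1 held no match to any of the 3 motifs. A match describes the letters only.

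After 1 day of light damage, 4 of the 9 genes were called higher in LD: Cxcl1, Cxcl10, Cxcl16 and Cx3cr1. A call required an adjusted p under 0.01 in limma and more than a 2-fold difference on the log2(FPKM + 0.1) scale, and 4.13% of the 24508 genes tested were called higher. Of the 9 genes, 7 were tested, since Cxcl9 and Cxcr3 did not reach 0.1 FPKM in 5 retinas. Cxcl1 and Cxcl10 reached that level only through the LD retinas and so entered the test because they were high there. No tested gene of the 9 was called lower (limma, 0 of 7, with 0 lower at an unadjusted p under 0.05 and 0 called lower by limma-voom), where 2.37% of all genes were. At an adjusted p under 0.01 with no minimum fold, 6 were higher, where 9.30% of all genes were. That count was not stable for Cx3cl1, whose adjusted p was 0.0106 to 0.0110 without NL-1, NL-7, NL-8 or LD-6. The same 6 had every LD retina above every NL retina, which 11.8% of all genes had.

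**Figure D1:**
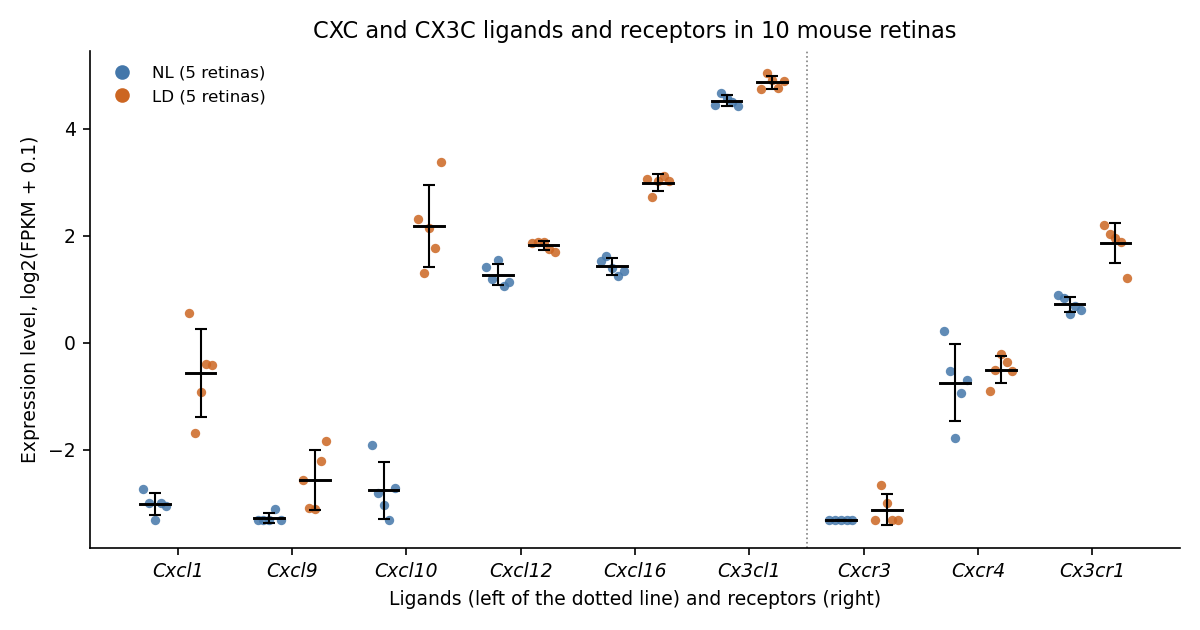
Expression level on the log2(FPKM + 0.1) scale (vertical axis) of the 6 ligands and 3 receptors (horizontal axis) in 5 NL and 5 LD retinas, with 1 point per retina, the mean as a horizontal line and the SD as error bars. Cx3cl1 lies highest in both groups, Cxcl1 and Cxcl10 move from near the bottom of the scale in NL to higher levels in every LD retina, and Cxcr3 stays at the bottom in both.

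Cxcl10, an interferon-inducible ligand of Cxcr3 that attracts activated T cells and natural killer cells, had the largest log2 difference of the 7 tested genes. In NL it was listed at 0.166, 0.0418, 0.0219, 0 and 0.0516 FPKM in NL-1, NL-4, NL-5, NL-7 and NL-8, which came from 8, 2, 1, 0 and 3 reads. In LD it was at 4.84, 2.39, 4.31, 3.31 and 10.3 FPKM in LD-1, LD-4, LD-6, LD-7 and LD-8, from 266, 109, 217, 170 and 517 reads. The lowest LD retina, LD-4, lay well above the highest NL retina, and LD-8 stood above the other LD retinas. The mean rose from 0.0563 ± 0.0645 to 5.03 ± 3.10 FPKM (SD, n = 5 per group), with a log2 fold change of 4.94 ± 0.38 (SE, 95% interval 4.10 to 5.79, adjusted p = 7.30e-06 in limma). Because 0.1 was added to values near 0, this scale understates the ratio, and with 1 added the log2 difference was 2.39. Summed over retinas, 14 reads in NL stood against 1279 in LD, a ratio of 89.6 per library size (95% counting interval 53.2 to 164.4). Cxcl10 shares 133 exon bases with Art3 on the opposite strand, which was at 0.0112 to 0.144 FPKM in all retinas.

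Cxcl9 is the neighbour of Cxcl10 on chromosome 5 and, like it, an interferon-inducible ligand of Cxcr3. It had 0 reads in 4 NL retinas and 1 read in NL-7, and 5, 1, 1, 8 and 12 reads in LD-1, LD-4, LD-6, LD-7 and LD-8. These are 0 to 0.0156 FPKM in NL and 0.0680, 0.0164, 0.0148, 0.116 and 0.179 FPKM in LD. The groups overlapped, since NL-7, LD-4 and LD-6 had 1 read each, and LD-1, LD-7 and LD-8 lay above them. The 1 read of NL against 27 of LD gave a ratio of 26.5 with a wide counting interval of 4.37 to 1085, and the exact two-sided permutation test over retinas gave p = 0.0159 (n = 5 per group). LD-8 had the most reads for both Cxcl9 and Cxcl10.

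Cxcl1, which attracts neutrophils through Cxcr2, was the third ligand near 0 in NL. It had 0.0499, 0.0251, 0, 0.0251 and 0.0207 FPKM in NL-1, NL-4, NL-5, NL-7 and NL-8, that is, 2, 1, 0, 1 and 1 reads. The LD retinas had 1.38, 0.210, 0.429, 0.656 and 0.647 FPKM in LD-1, LD-4, LD-6, LD-7 and LD-8, from 63, 8, 18, 28 and 27 reads. LD-1 was highest and LD-4 lowest, and no LD retina overlapped NL. The mean rose from 0.0242 ± 0.0177 to 0.664 ± 0.439 FPKM (SD, n = 5), with a log2 fold change of 2.45 ± 0.36 (SE, 95% interval 1.65 to 3.25, adjusted p = 5.67e-04 in limma). The summed reads were 5 in NL and 144 in LD, a ratio of 28.3 (11.8 to 88.3). The size depended on the added value at this low level: with 0.01 added the log2 difference was 4.26 and the gene was called, and with 1 added it was 0.66 and the gene was not called (adjusted p = 0.00624 in limma).

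**Figure D2:**
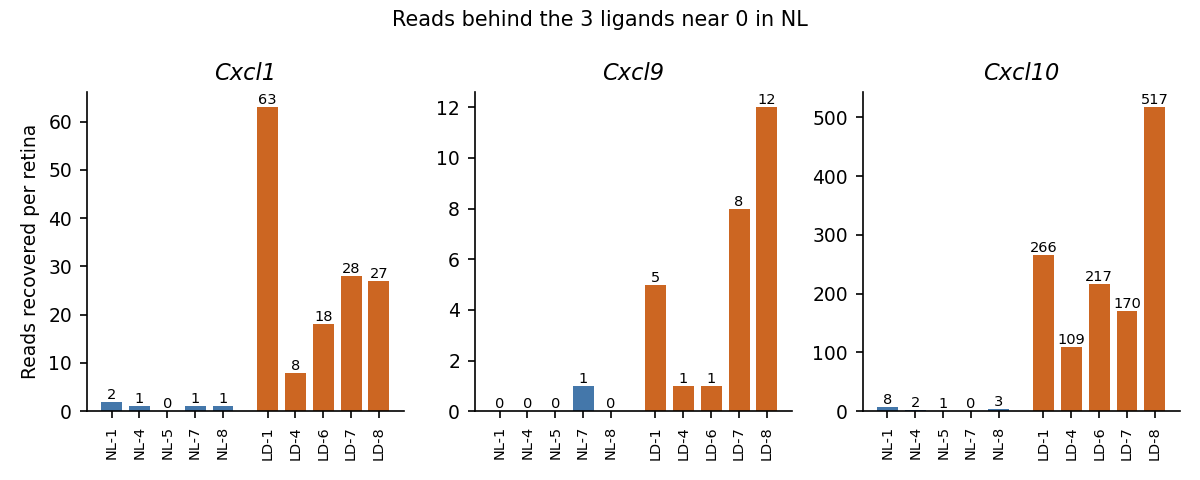
Reads recovered from the deposited FPKM (vertical axes, linear and starting at 0) for Cxcl1, Cxcl9 and Cxcl10 in each of the 10 retinas, NL in blue and LD in orange, with the number above each bar. NL bars stand at 0 to 8 reads, LD bars at 8 to 63 for Cxcl1, 1 to 12 for Cxcl9 and 109 to 517 for Cxcl10.

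Cxcl16 encodes a membrane-anchored ligand of Cxcr6 that also works as a scavenger receptor, and unlike the ligands above it was well detected in NL. Its level was 2.79, 2.98, 2.53, 2.26 and 2.45 FPKM in NL-1, NL-4, NL-5, NL-7 and NL-8. The LD retinas had 8.31, 6.48, 8.09, 8.57 and 8.05 FPKM in LD-1, LD-4, LD-6, LD-7 and LD-8. The groups were far apart compared with the spread in either, and LD-4 was the lowest LD retina, as it was for Cxcl1 and Cxcl10. The mean rose from 2.60 ± 0.282 to 7.90 ± 0.821 FPKM (SD, n = 5), with a log2 fold change of 1.57 ± 0.10 (SE, adjusted p = 1.46e-06 in limma), and this was the most precise of the 4 calls. Cxcl16 shares 552 exon bases with Zmynd15 on the opposite strand, which stood at 0.427 to 0.673 FPKM in NL and 1.34 to 1.98 FPKM in LD. Whether the counting used strand is not given in the sources used here, so reads of Zmynd15 and Cxcl16 in these bases cannot be told apart, and the part of Zmynd15 in the result was not tested.

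Cxcl12, the ligand of Cxcr4 that is made by many tissues without injury, and Cx3cl1, the ligand of Cx3cr1, were expressed in every NL retina and differed by less than 2-fold. Cxcl12 stood at 2.55, 2.20, 2.83, 2.00 and 2.08 FPKM in NL-1, NL-4, NL-5, NL-7 and NL-8. In LD-1, LD-4, LD-6, LD-7 and LD-8 it was at 3.55, 3.61, 3.61, 3.29 and 3.15 FPKM, so that every LD retina lay above every NL retina. The mean was 2.33 ± 0.348 FPKM in NL and 3.44 ± 0.211 FPKM in LD (SD, n = 5), 1.46-fold higher, with a log2 difference of 0.55 ± 0.10 (SE, 95% interval 0.32 to 0.78) and an adjusted p of 0.00249 in limma. It thus passed the p threshold and not the 2-fold limit.

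Cx3cl1 was the most abundant of the 9 per length. The NL retinas had 21.7, 25.5, 23.7, 22.6 and 21.2 FPKM and the LD retinas 26.5, 32.8, 30.2, 27.1 and 29.7 FPKM, in the same order of labels as above. The groups were adjacent without overlap, with NL-4 just below LD-1, and LD-4 was the highest. The mean was 23.0 ± 1.72 FPKM in NL and 29.3 ± 2.54 FPKM in LD (SD, n = 5), 1.27-fold higher, with a log2 difference of 0.35 ± 0.07 (SE, 95% interval 0.20 to 0.50) and an adjusted p of 0.00363 in limma. Its upper limit and that of Cxcl12 both lie under a 2-fold difference.

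**Figure D3:**
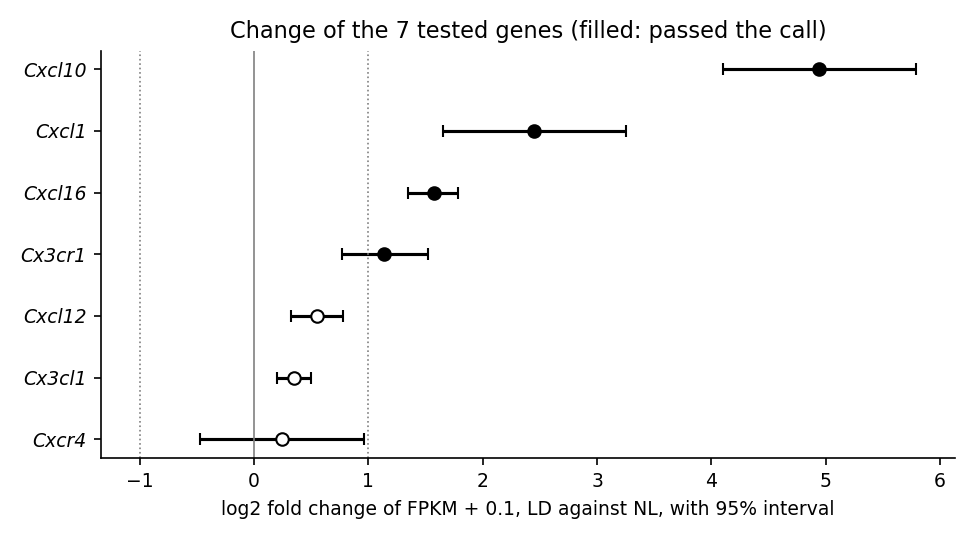
Log2 fold change of FPKM + 0.1, LD against NL (horizontal axis), with its 95% interval from limma, for the 7 tested genes (vertical axis), 5 retinas per group. Filled points passed the call, dotted lines mark a 2-fold difference, and the values run from 0.24 for Cxcr4 to 4.94 for Cxcl10.

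Of the receptors, Cx3cr1 was the only call. This gene, the fractalkine receptor of microglia and of circulating monocytes, stood at 1.76, 1.67, 1.36, 1.52 and 1.44 FPKM in NL-1, NL-4, NL-5, NL-7 and NL-8. It was at 4.51, 3.97, 3.80, 3.61 and 2.22 FPKM in LD-1, LD-4, LD-6, LD-7 and LD-8. All LD retinas lay above NL, and LD-8, which was highest for Cxcl10, was lowest here and closest to NL. The mean rose from 1.55 ± 0.168 to 3.62 ± 0.850 FPKM (SD, n = 5), with a log2 fold change of 1.14 ± 0.17 (SE, 95% interval 0.77 to 1.52, adjusted p = 6.16e-04 in limma). The interval reaches below a 2-fold difference, and the call ended with a pseudocount of 1, where the log2 difference was 0.84, and when the 3 closest pairs were averaged, where it was 1.01 with an adjusted p of 0.0173.

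Cxcr4, the receptor of Cxcl12 on leukocytes, endothelial tip cells and many progenitors, did not pass. Its 5 NL values were 1.06, 0.599, 0.191, 0.417 and 0.515 FPKM, and its 5 LD values were 0.431, 0.600, 0.766, 0.680 and 0.596 FPKM. NL-1 was the highest and NL-5 the lowest of all 10, so that the NL range held the whole LD range. From 7 to 41 reads per retina, the log2 difference was 0.24 with a 95% interval of -0.47 to 0.96 (adjusted p = 0.629 in limma). The upper limit of this interval lies just under a 2-fold difference.

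Cxcr3, the receptor of Cxcl9 and Cxcl10, was at the limit of detection. It had 0 reads in all 5 NL retinas and in LD-1, LD-7 and LD-8, 2 reads in LD-4 and 1 in LD-6. In these libraries 3 reads of Cxcr3 correspond to 0.0672 to 0.0855 FPKM, and no retina reached that, so no fold was computed and a difference was not detectable at this depth.

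The single-gene exact permutation test over retinas gave p = 0.00794, the smallest that 5 against 5 allows, for Cxcl1, Cxcl10, Cxcl12, Cxcl16, Cx3cl1 and Cx3cr1, and p = 0.524 for Cxcr4. With Cxcl9, 8 such tests were run. The smallest p follows directly from the lack of overlap between the groups already given for those genes, so it is no separate evidence. These tests also took the close pairs of samples as separate samples.

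The order of levels per length also differed between the groups. In NL it ran Cx3cl1, Cxcl16, Cxcl12, Cx3cr1, Cxcr4, Cxcl10, Cxcl1, Cxcl9 and Cxcr3, where Cxcl16 and Cxcl12 overlapped in range, and the last 4 overlapped with their neighbours near 0. In LD it ran Cx3cl1, Cxcl16, Cxcl10, Cx3cr1, Cxcl12, Cxcl1, Cxcr4, Cxcl9 and Cxcr3. There Cxcl16, Cxcl10, Cx3cr1 and Cxcl12 overlapped each with the next, as did Cxcl1 and Cxcr4, and Cxcl9 and Cxcr3. Cx3cl1 stood apart from all others in both groups. The summed level of the 9 genes was 27.8 to 33.1 FPKM in NL and 47.4 to 54.8 FPKM in LD. Cx3cl1 made up most of it in both groups, with means of 23.0 FPKM in NL and 29.3 FPKM in LD.

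Since Cx3cr1 is used as a marker of microglia, it was set against 14 other microglial genes. Of these, 5 rose, among them Fcrls (log2 fold change 3.18 ± 0.41), the integrin subunit Itgam (1.55 ± 0.18), the lipid receptor Trem2 (1.42 ± 0.23) and Aif1, which encodes IBA1 (1.18 ± 0.24, SE in each case). The count of 5 fell to 3 without NL-8, to 3 with a filter of 1 FPKM, to 1 with the 3 closest pairs averaged and to 1 with a pseudocount of 1. The homeostatic markers P2ry12 (-0.74 ± 0.33, adjusted p = 0.122) and Tmem119 (0.22 ± 0.23, adjusted p = 0.528) did not pass in limma. Over all 14 the median log2 difference was 0.80, against -0.01 over all genes tested, and 0 were called lower (1 was lower at an unadjusted p under 0.05, and limma-voom called 0 lower). Itgam shares 3450 exon bases with Gm49368 on the same strand, which was listed at 0 to 0.00914 FPKM.

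Their summed level was 28.9, 22.1, 26.4, 25.1 and 23.0 FPKM in NL-1, NL-4, NL-5, NL-7 and NL-8. It was 68.7, 47.7, 49.1, 60.1 and 28.4 FPKM in LD-1, LD-4, LD-6, LD-7 and LD-8. LD-8, the LD retina with the least Cx3cr1, was also lowest in this sum and lay within the NL range. Their part in the change of Cx3cr1 was not tested. Relative to the mean log2 level of the 14, Cx3cr1 stood at 0.63 ± 0.12 in NL and 1.01 ± 0.30 in LD (SD, n = 5), a difference of 0.38 with an exact two-sided permutation p of 0.0476, and 3 of 5 LD retinas lay above all of NL. This difference was past 0.05 by a narrow margin: without LD-4 it was 0.30 (exact permutation p = 0.0952), and leaving out any of NL-1, NL-5, NL-7, NL-8, LD-6 or LD-8 also took the p above 0.05. The test took the close pairs as separate samples: LD-4 with LD-6 (1.33 and 1.21), LD-1 with LD-7 (0.75 and 0.64) and NL-5 with NL-7 (0.48 and 0.62). It was not repeated with these pairs averaged, so the p holds only if the paired samples are independent.

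**Figure D4:**
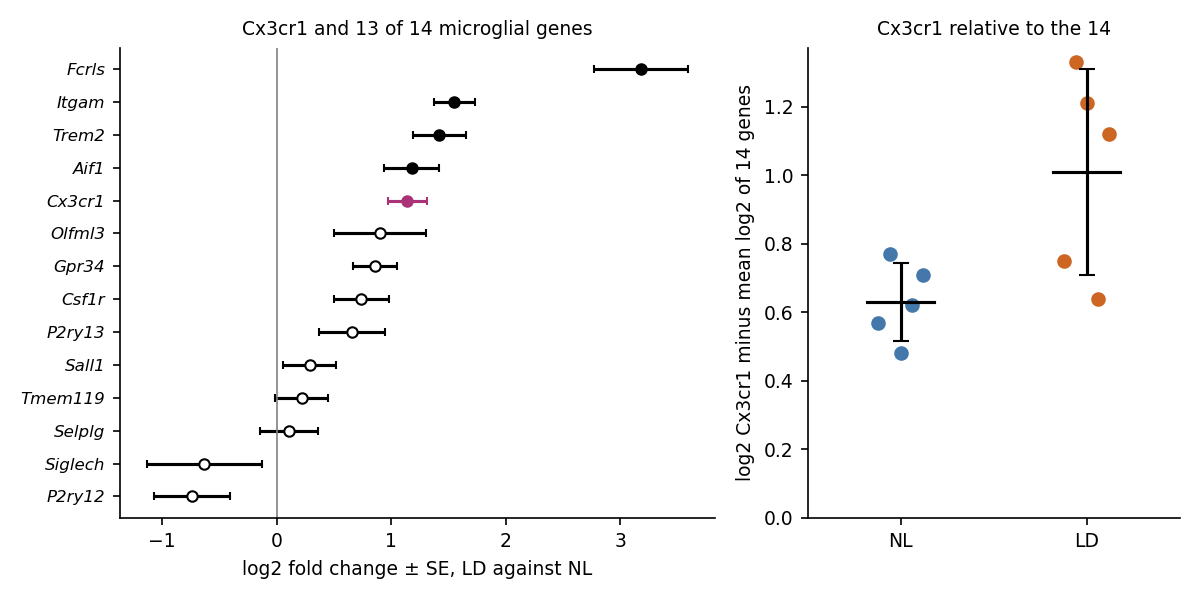
Left, log2 fold change of FPKM + 0.1, LD against NL, with its SE (horizontal axis) for Cx3cr1 and 13 of the 14 microglial genes (vertical axis), filled where the call was passed. Right, log2 level of Cx3cr1 minus the mean log2 level of the 14 genes in 5 NL and 5 LD retinas, with the mean and SD, which are 0.63 in NL and 1.01 in LD.

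Other leukocyte markers were low in all retinas. The 9 monocyte and macrophage genes summed to 0.264 to 0.575 FPKM in NL and 1.62 to 2.88 FPKM in LD. Most of this sum was Adgre1 (F4/80), at 0.268 ± 0.0661 FPKM in NL and 1.49 ± 0.368 FPKM in LD, so it mainly follows that gene. The sum does not separate monocytes from microglia. Adgre1 was called higher (log2 fold change 2.10 ± 0.21). Plac8, with 1 read in NL against 41 in LD (a ratio of 40.2 with a counting interval of 6.83 to 1627), was called too but reached 0.1 FPKM only in LD, and the other 7 genes were under the filter. Of this list, Ly6c2 had 0 reads in every NL retina and 4 to 17 in LD, and Ccr2 had 0 or 1 in NL and 2 to 21 in LD. The 12 T and natural killer cell genes summed to 0.549 to 0.800 FPKM in NL and 1.24 to 1.73 FPKM in LD. Most of this sum was Lck, a kinase of T cells, which rose from 0.360 ± 0.106 to 0.973 ± 0.162 FPKM (1.24 ± 0.19). The other tested gene, Cd4, did not pass (0.24 ± 0.23, adjusted p = 0.496 in limma). Cd3d, Cd3e, Cd8b1, Nkg7 and Prf1 had no more than 3 reads in any retina. The 10 neutrophil genes summed to 0.909 to 1.43 FPKM in NL and 0.923 to 2.24 FPKM in LD. Among them 0 of 5 tested were called in limma (at an unadjusted p under 0.05, 1 was higher and 1 lower, and limma-voom called 0), and Ly6g, Mpo, Elane, Retnlg and Mmp8 had no more than 3 reads in any retina. The part of these cells in the levels of Cxcl1, Cxcl10, Cxcl16 and Cx3cr1 was not tested.

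Among resident cells, the 8 Müller glia genes held 1 call higher, the intermediate filament gene Vim (2.02 ± 0.18), and 1 lower, the glutamine synthetase gene Glul, which fell by 2.09 on the log2 scale (SE 0.10). The 9 endothelial genes summed to 41.8 to 53.2 FPKM in NL and 58.3 to 93.9 FPKM in LD. Most of this sum was Kdr, at 30.0 ± 4.07 FPKM in NL and 49.8 ± 12.8 FPKM in LD, so it mainly follows that gene. Of the 9, 0 were called in limma (4 were higher and 0 lower at an unadjusted p under 0.05, and limma-voom called 0). The part of these cells in the levels of Cxcl12 and Cxcr4 was not tested.

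The remaining CXC family, 16 genes, was mostly low or did not pass. Of 7 tested, 2 rose and 0 were called lower (0 lower at an unadjusted p under 0.05 and 0 in limma-voom), with a median log2 difference of 0.20. The count fell to 1 without NL-4, NL-7 or NL-8 and with the closest pairs averaged, where Cxcl13 was lost, and with a pseudocount of 1, where Cxcl5 was. Cxcl5, which like Cxcl1 acts on Cxcr2, rose from 0.0755 ± 0.0584 to 0.701 ± 0.159 FPKM (log2 fold change 2.23 ± 0.26, adjusted p = 1.10e-04 in limma), with 2 NL retinas and all 5 LD retinas at 0.1 FPKM. Cxcl13, the B cell attractant, rose from 0.653 ± 0.184 to 3.19 ± 2.07 FPKM (1.92 ± 0.39, adjusted p = 0.00421 in limma). Cxcl2, another Cxcr2 ligand, did not pass the filter, with 0 or 1 read in each NL sample and 1 to 19 in each LD sample. Cxcl11, the third ligand of Cxcr3, was at 1 to 4 reads in NL and 4 to 11 reads in LD.

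Other receptors of these ligands were not called or too low to test. Cxcr1 and Cxcr2, the receptors of the Cxcl1 group, had at most 3 reads in any retina and were not tested. Cxcr6, the receptor of Cxcl16, was at 1.21 ± 0.373 FPKM in NL and 0.882 ± 0.275 FPKM in LD (log2 difference -0.41 ± 0.25, adjusted p = 0.255 in limma). Ackr3, the scavenging receptor of Cxcl12, was at 0.918 ± 0.417 and 1.03 ± 0.113 FPKM (0.23 ± 0.23, adjusted p = 0.513 in limma). Ackr1, an atypical receptor that binds many chemokines, was listed at 34.1 ± 5.61 and 38.1 ± 4.26 FPKM, but it shares 361 of its 1405 exon bases with Cadm3 on the same strand, which was at 55.5 to 78.2 FPKM, so its level is uncertain.

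Proteases that release or trim these ligands were also without a call in limma (0 of 4, with 1 higher and 0 lower at an unadjusted p under 0.05, and 0 in limma-voom). Adam10, which sheds Cx3cl1 and Cxcl16 from the membrane, was at 14.5 ± 0.710 FPKM in NL and 14.2 ± 0.389 FPKM in LD. Adam17, which does so under stimulation, was at 5.15 ± 0.370 and 5.32 ± 0.190 FPKM. Ctss, a microglial protease that cleaves Cx3cl1, was at 9.59 ± 1.96 and 18.4 ± 8.21 FPKM (log2 difference 0.85 ± 0.27, adjusted p = 0.0380 in limma).

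Of 25 genes that carry the signal from chemokine receptors, 8 rose and 0 were called lower (1 was lower at an unadjusted p under 0.05, and limma-voom called 0 lower), with a median log2 difference of 0.39. On the scale with 0.1 added, the largest difference was that of the Src-family kinase gene Fgr (3.65 ± 0.37). Vav1, an exchange factor for Rac, rose by 2.14 ± 0.19 on the log2 scale, the kinase Lyn by 1.99 ± 0.15, and the leukocyte GTPase Rac2 by 1.91 ± 0.26 (SE in each case). Rgs1, which damps receptor signalling, went from 2 reads in NL to 221 in LD, a ratio of 108.4 with a counting interval of 29.7 to 900.8. Dock2 and Pik3r5 were also called. The 8 are known mainly from leukocytes and microglia. Without the 2-fold limit, 12 of the 25 had an adjusted p under 0.01, and the further ones included the broadly expressed genes Plcb3 (0.70 ± 0.11), Gna13 (0.45 ± 0.07), Gnai3 (0.39 ± 0.06) and Rac1 (0.35 ± 0.06). Rgs1 had no NL retina at 0.1 FPKM, and Fgr, Dock2 and Rac2 reached it in fewer than 5 NL retinas, so they entered the test through their LD levels. The count of 8 became 2 with a pseudocount of 1 and 4 with a filter of 1 FPKM.

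On the side of the inducers, 6 of the 11 tested genes of the interferon arm rose and 0 were called lower (1 lower at an unadjusted p under 0.05, 0 in limma-voom), with a median log2 difference of 1.12. The calls included the transcription factor genes Irf7 (3.90 ± 0.27), Irf1 (3.52 ± 0.20), Irf9 (2.89 ± 0.10) and Stat2 (2.06 ± 0.07) and the receptor chain gene Ifnar2 (1.12 ± 0.16), with SE given. Irf9 and Stat2 encode subunits of a complex that binds the ISRE. The ligand genes Ifng and Ifnb1 had at most 1 and 3 reads in any retina. Irf1 and Irf7 share exon bases with Gm17334 and Phrf1 on the opposite strand, and Irf9 shares 123 with Rnf31 on the same strand.

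In the NF-kappaB arm 4 of 10 genes rose and 1 fell, with a median of 0.72. Relb (2.38 ± 0.10) and Nfkb2 (2.30 ± 0.14) encode subunits of the non-canonical pathway, and Nfkbiz (1.16 ± 0.09) an inducible regulator. Tnf had 0 reads in all NL retinas and 5 to 18 in LD, at least 18.3-fold higher against a floor of 3 reads over the NL group. Tnf is among the 4 and entered the test only through LD, and with a pseudocount of 1 the count was 2. The inhibitor gene Tnfaip3 fell by 2.30 on the log2 scale (SE 0.14), from 41.5 ± 6.55 to 8.35 ± 1.67 FPKM. Nfkbia, another inhibitor gene of the list, went the other way, from 9.73 ± 1.42 to 15.5 ± 0.581 FPKM. Its log2 difference was 0.68 ± 0.09 (SE, adjusted p = 3.35e-04 in limma), under the 2-fold limit. The canonical subunit gene Rela was 1.61-fold higher with an adjusted p of 2.04e-05 in limma, under the 2-fold limit. Nfkb2 shares 299 exon bases with Psd on the opposite strand.

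**Figure D5:**
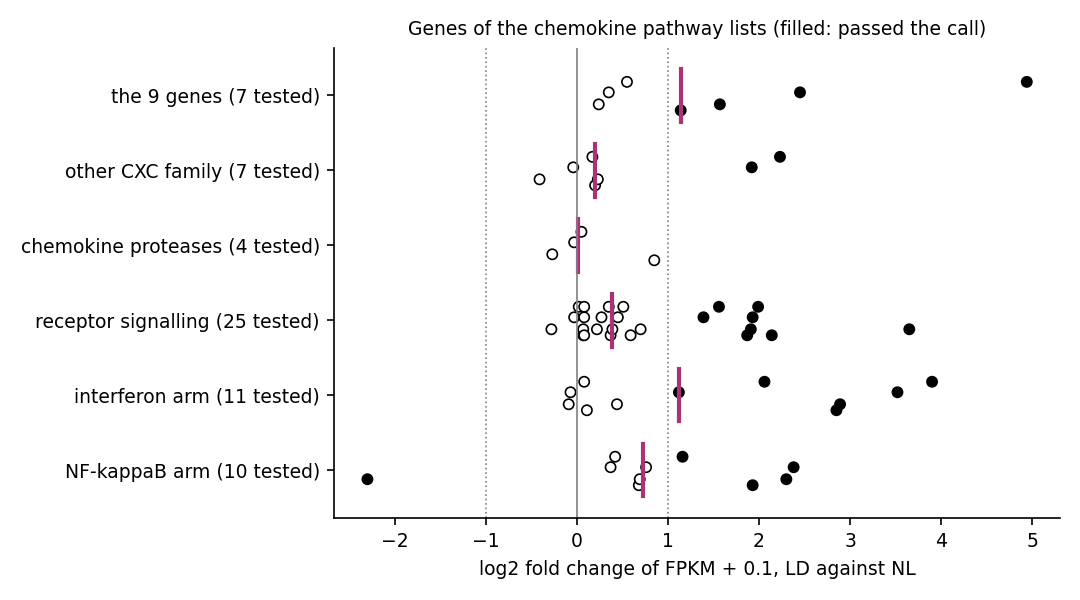
Log2 fold change of FPKM + 0.1, LD against NL (horizontal axis), of the tested genes of 6 lists (vertical axis), with 1 point per gene, filled where the call was passed, and the median of each list as a vertical bar. The medians are 1.14 for the 9 genes, 0.20 for the other CXC family genes, 0.01 for the proteases, 0.39 for receptor signalling, 1.12 for the interferon arm and 0.72 for the NF-kappaB arm.

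For genes with at least 10 reads in every retina, the protein-coding genes with the most similar pattern over the 10 retinas were found after subtracting each group's mean, among 12689 genes with at least 1 FPKM in a group. Correlations were 0.909 for Resf1, 0.886 for Srprb and 0.885 for Mcee with Cxcl12. For Cxcl16 they were 0.929 with Nup133, 0.906 with Cactin and 0.904 with Armc6. For Cx3cl1 they were 0.979 with Spock3, 0.967 with Kif3c and 0.965 with Rcn1, and for Cx3cr1 0.947 with Slc29a3 and 0.929 with Nde1. These are the top of many comparisons over 10 points that share libraries and depth, and they are given as a description with Pearson's r.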

How the data were processed

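Neural retinas were flash frozen, RNA was taken up in TRIzol, and TruSeq libraries were made. The submitters' processing notes name TopHat2 2.0.9, Bowtie2 2.0.6 and the build mm8, whereas the positions in the table are those of GRCm38 (54495 of 54532 identifiers are in GENCODE M21, 53585 at the same position, the 9 genes included). The counting program and the use of strand are not given in the sources used here. The authors deposited FPKM, normalized by a company. FPKM times length gave whole reads for 100.0% of values (within 0.01 read), and these reads served as counts per gene. The library size behind the FPKM was 0.951 to 0.968 times the summed reads in NL and 1.04 to 1.07 times in LD.

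From the deposited FPKM, log2(FPKM + 0.1) was compared between LD and NL in limma 3.58.1 (R 4.3.3) with an intensity trend and no block, for the 24508 genes that reached 0.1 FPKM in 5 or more retinas, with Benjamini-Hochberg adjustment over all of them. Calls needed an adjusted p under 0.01 and over 2-fold, as in the study, which names no tool. Single genes were compared by exact permutation tests (scipy 1.17.1). A gene at or under 3 reads in a retina was treated as at the floor. Counting intervals (exact binomial, 95%) and floors cover counting error only. limma-voom on the recovered reads, other pseudocounts, filters, scalings and thresholds, a replicate block, and each retina left out were the alternatives. On simulated data for 24155 genes, 200 genes were changed by log2 sizes of 2 or 3. Of these, 199 were called with the right sign, and 2 unchanged genes were called. The changed genes were drawn from well-counted ones, with independent libraries and a fixed dispersion. That run therefore does not cover genes near 0 reads, such as Cxcl1, or differences near 2-fold, such as that of Cx3cr1. The 9 genes and the lists were chosen with earlier results of these data known. Named genes are the 9, the called genes of each list with values for at most the 6 largest, and the 3 most similar genes for each well-counted gene. Genes named outside this rule, such as ligand and receptor partners, defining markers and genes sharing exon bases, were chosen after their values were seen. A few genes that the rule names are not reported here.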

Additional observations from a re-analysis of the deposited data

Results flagged for a closer look

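Within groups of 5 retinas, 2 of the 19 sets held a value far from the rest by Dixon's criterion, where 0.950 would be flagged by chance at 1 in 20. Cxcl9 in NL-7 was at 0.0156 FPKM, which is 1 read, and the other NL retinas were at 0. With all others at 0, any value above 0 meets the criterion, so the chance rate does not apply to such a set. Cxcl16 in LD-4 was at 6.48 FPKM (397 reads), and the other LD retinas were at 8.05 to 8.57 FPKM. Without LD-4 or any other retina, Cxcl16 was still called, with a log2 fold change of 1.52 to 1.64.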

How the results depend on the processing

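The number of genes changed, 1595, became 816 with a pseudocount of 1, 4178 at an adjusted p under 0.01 with any fold and 6818 at one under 0.05 with any fold. Of the 9 genes, 4 were called higher, and 2 with a pseudocount of 1. Replicate numbers did not pair the retinas: same-numbered samples correlated at 0.057, 0.066, -0.012 and -0.089, and the replicate block on the 8 retinas of shared numbers gave 808 genes and 2 of the 9 (Cxcl10 and Cxcl16), against 1182 genes and 4 of the 9 for the same retinas without it. With the block the calls were 2 for microglia, 1 for other CXC genes and 5 for receptor signalling. Cxcl10 and Cxcl16 kept their call in all 22 alternatives, with log2 fold changes of 2.39 to 6.63 and 1.30 to 1.70. Cxcl1 lost it in 2 of 21 (0.66 to 4.26) and Cx3cr1 in 3 of 22 (0.84 to 1.31), and with each retina left out in turn both were called, at 2.16 to 2.73 and 1.06 to 1.31. Cxcl12 (0.42 to 0.68) and Cx3cl1 (0.31 to 0.48) stayed higher and under 2-fold, but not always at an adjusted p under 0.01 in limma. With the closest pairs averaged, Cxcl12 was at 0.0143 and Cx3cl1 at 0.0245. With the replicate block they were at 0.0155 and 0.0145. Cx3cl1 was also at 0.0218 on the same 8 retinas without the block and at 0.0101 with no trend. Without NL-1, NL-7, NL-8 or LD-6 it was at 0.0106 to 0.0110. Without the factor per retina the median over all genes was 0.11, against -0.01. Cx3cr1 relative to the microglial genes differed by 0.38, and by 0.36 under a pseudocount of 0.01, 0.37 on TPM and 0.40 against the list's median, each with an exact permutation p above 0.05, by 0.35 with a pseudocount of 1 (exact permutation p = 0.00794), and by 0.30 to 0.47 with each retina left out (exact permutation p = 0.0317 to 0.0952). Depth limited Cxcr3 and Cxcl9, which were under the filter. Without the filter neither was called (adjusted p = 0.0680 for Cxcl9 and 0.388 for Cxcr3 in limma). The cause of the lost calls was not tested.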
